A study of Mus musculus with 13 samples.

Results

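Detoxification enzymes of the mouse submandibular gland, a major salivary gland, were followed in irradiated and non-irradiated glands. The genes were chosen by symbol from the deposited normalised table. All glutathione S-transferases with symbols in Gsta, Gstk, Gstm, Gsto, Gstp, Gstt or Mgst were taken, and symbols of other Gst classes were not. Glutathione peroxidases (Gpx), cytochrome P450 enzymes (Cyp), UDP-glycosyltransferases (Ugt) and aldehyde dehydrogenases (Aldh) were all taken as well. Nqo1, Hmox1, Gclc, Gclm, Txnrd1, Srxn1, Sod1, Sod2 and Cat were added by name. This gave 95 of the 17957 entries of that table, 91 of them protein-coding and 4 pseudogenes. The rule reads symbols and uses no measured value beyond the table's own minimum of reads. Of the 95 genes, 76 passed the filter on low counts and were tested, and 19 did not.

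RNA was sequenced in 13 libraries of glands taken 300 days after treatment from mice 1 year old, with the strain given as CH3. In 5 libraries (label PreIR-NTN, here IR_NTN) the gland had received Cere-120, an adeno-associated virus vector carrying neurturin (AAV2-NRTN), 10 days before irradiation. Another 5 (label PreIR-GFP, here IR_GFP) had received AAV2-GFP, which carries green fluorescent protein, 10 days before irradiation. The last 3 (NonIR) came from glands that were not irradiated, and the sources used here do not say whether these received a vector, so that irradiation and vector cannot be told apart in a comparison with NonIR. The labels do not tie libraries to separate animals, and p-values therefore measure the spread between these libraries, which may be technical.

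Detoxification enzymes work in phases. P450 enzymes oxidise lipids, steroids and foreign compounds, and aldehyde dehydrogenases convert reactive aldehydes into acids. Glutathione S-transferases and UDP-glycosyltransferases then attach glutathione or a sugar, and glutathione peroxidases, catalase and superoxide dismutases remove peroxides and superoxide. The transcription factor NRF2 (gene Nfe2l2) induces glutathione synthesis and quinone reduction genes from antioxidant response elements, and the aryl hydrocarbon receptor (Ahr) induces Cyp1a1 from xenobiotic response elements. Ionising radiation makes reactive oxygen species, which is why these enzymes are of interest in an irradiated gland.

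The starts of 3 genes are shown as examples of genes whose values varied between libraries within the groups, as described below. Other genes that varied, such as Cat and Cyp4v3 in IR_GFP 1, are not shown. Gclm stood high in 1 IR_GFP library, Cyp1a1 in another, and Sod1 had the widest spread of the 12 genes with the highest level. Each sequence is the 250 bases before the RefSeq start on GRCm38.p6, written 5′ to 3′ on the strand of the gene. Capitals mark the letters TGACNNNGC (the core of an antioxidant response element) or GCGTG (the core of a xenobiotic response element), on either strand. The windows lie at chr3:122245307-122245556 (Gclm), chr9:57697363-57697612 (Cyp1a1) and chr16:90220512-90220761 (Sod1), all on the plus strand.
Gclm: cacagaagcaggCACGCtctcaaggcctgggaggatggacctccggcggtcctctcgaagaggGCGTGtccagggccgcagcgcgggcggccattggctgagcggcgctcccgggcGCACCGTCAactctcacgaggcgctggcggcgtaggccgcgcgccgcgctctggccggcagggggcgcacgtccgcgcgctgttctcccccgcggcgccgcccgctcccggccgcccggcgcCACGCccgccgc
Cyp1a1: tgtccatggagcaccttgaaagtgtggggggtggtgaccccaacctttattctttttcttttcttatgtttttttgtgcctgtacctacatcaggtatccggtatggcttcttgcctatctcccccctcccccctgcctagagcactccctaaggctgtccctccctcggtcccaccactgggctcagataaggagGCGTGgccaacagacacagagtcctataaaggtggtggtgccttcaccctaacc
Sod1: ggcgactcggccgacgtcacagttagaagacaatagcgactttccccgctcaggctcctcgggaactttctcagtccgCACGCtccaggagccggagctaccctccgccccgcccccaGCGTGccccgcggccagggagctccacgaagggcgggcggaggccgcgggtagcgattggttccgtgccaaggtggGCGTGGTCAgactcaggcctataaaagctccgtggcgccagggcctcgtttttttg
In Gclm the run GCACCGTCA is TGACNNNGC read on the other strand, and it begins 134 bases before the start. In Sod1 the run GCGTGGTCA begins 56 bases before the start and holds overlapping matches to both motifs. The Cyp1a1 window held 1 match to GCGTG and no TGACNNNGC. Windows of Srxn1 and Txnrd1 were searched as well. That of Srxn1 held 1 match to GCGTG and 0 to TGACNNNGC. Of the Txnrd1 starts, only that with the window chr10:82858956-82859205 held TGACNNNGC, with 1 match. Of the 95 genes, 75 had an entry in the RefSeq promoter table, with 90 starts in all. TGACNNNGC was present in 10 of these 90 windows (11.1%), against 10.2% of all 32851 windows in the table, and GCGTG in 35 (38.9%), against 28.2%. A match of letters does not show that a factor binds there.

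Genes of the gland were present as the tissue label states. Summed CPM (a gene's reads relative to the TMM-scaled total of its library) of 9 acinar markers ran from 127000 to 215000 in IR_NTN, from 83500 to 158000 in IR_GFP and from 166000 to 227000 in NonIR. Smgc made up much of these sums, averaging 78700 CPM in IR_NTN, 39400 in IR_GFP and 119000 in NonIR. By fold change 7 of the 9 acinar markers were higher in IR_GFP than in NonIR and 2 lower. In IR_NTN against NonIR 6 were higher and 3 lower, and 0 passed the test in either comparison. For 9 markers of the granular convoluted tubule, the androgen-dependent duct segment of the rodent gland, the sums were 21700 to 42200 in IR_NTN, 10400 to 46900 in IR_GFP and 38800 to 52200 in NonIR. Liver and kidney markers, whose tissues share many of these enzymes, summed to at most 2.58 CPM over 5 genes, and Umod had no read in any library. Libraries held 9724301 to 16771003 reads in genes. In whole-gland RNA, fewer cells of a type and less RNA per cell cannot be told apart.

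A trend with transcript length ran through the libraries and bears on the short enzymes. For each library an index was computed as the median log2 deviation of 733 short protein-coding genes (1000 bases or fewer) minus that of 4055 long ones (over 4000 bases), leaving out the detoxification genes. It lay below -0.5 in 4 libraries: -0.95 in IR_NTN 2, -1.07 in IR_GFP 1, -0.73 in IR_GFP 5 and -0.64 in NonIR 1. In the other libraries it lay between -0.17 and 0.62. Every group held at least 1 of these low libraries. The cause of the trend was not tested.

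Sod1, the cytosolic copper-zinc superoxide dismutase (chr16:90220754-90226329), had the highest level per kilobase of transcript, 949 CPM per kb on average over the 13 libraries. Its CPM was 931, 244, 452, 776 and 901 in IR_NTN, 207, 698, 805, 901 and 275 in IR_GFP, and 278, 621 and 816 in NonIR. Sod1 fell lowest in the 4 libraries with an index below -0.5, and the ranges of the groups overlapped widely. The highest library exceeded the lowest 4.49-fold. Sod1 did not pass the test in any comparison (edgeR adjusted p = 0.998 for IR_NTN against IR_GFP, 0.957 for IR_NTN against NonIR and 0.999 for IR_GFP against NonIR). Its log2 difference between IR_GFP and NonIR was 0.01, with a 95% interval from -1.25 to 1.28, so that a change of 2-fold either way lay within the interval.

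Sod1 was not alone in this. Of the 8 detoxification transcripts of 1000 bases or fewer that were tested, 7 had their 4 lowest values in exactly those 4 libraries: Sod1, Gpx4, Gsta4, Gstk1, Gstm5, Gstp1 and the pseudogene Gstp-ps. Of the 68 longer ones, 2 did, Gpx1 and Mgst3. The median deviation of the 8 short transcripts was -0.77 in IR_NTN 2 and -0.93 in IR_GFP 1, against -0.11 and 0.22 for the 8 long ones (over 4000 bases) in the same libraries. It was smaller in the other low libraries, -0.36 in IR_GFP 5 and -0.30 in NonIR 1, against 0.30 and 0.02 for the long ones.

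**Figure D1:**
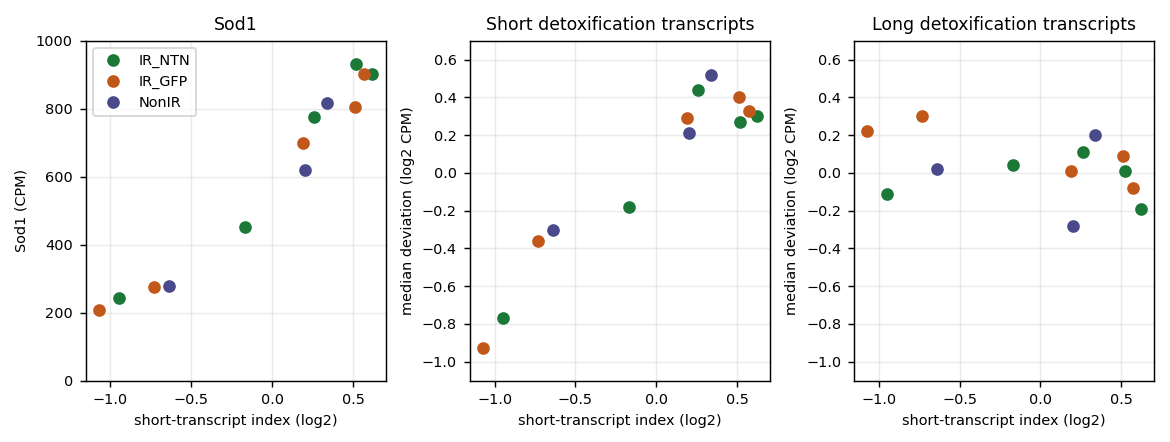
Each point is 1 library, placed on the x axis by its short-transcript index (log2) and coloured by group (IR_NTN green, IR_GFP orange, NonIR blue). The y axis gives Sod1 in CPM (left), the median deviation in log2 CPM of the 8 short detoxification transcripts (middle, 1000 bases or fewer) and of the 8 long ones (right, over 4000 bases). Sod1 was 207 CPM at the lowest index and 901 CPM at the highest, and points of all 3 groups lie along the same course.

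Levels were compared between genes per kilobase of transcript. After Sod1 came Cyp2f2 at 375 CPM per kb, then Gpx1 at 116, Cat at 101, Aldh7a1 at 86.3, Gstm2 at 80.4 and Gpx4 at 75.4. Cyp39a1, Gstt3, Aldh2, Gstm1 and Gsta4 followed between 67.2 and 46.7 CPM per kb. At the other end, the 19 genes that did not pass the filter averaged 0.069 to 0.531 CPM and held 13 to 96 reads over all libraries, among them Cyp2e1, the liver's ethanol-inducible P450, with 39 reads and Cyp3a57, the only gene of its P450 family in the table, with 55.

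**Figure D2:**
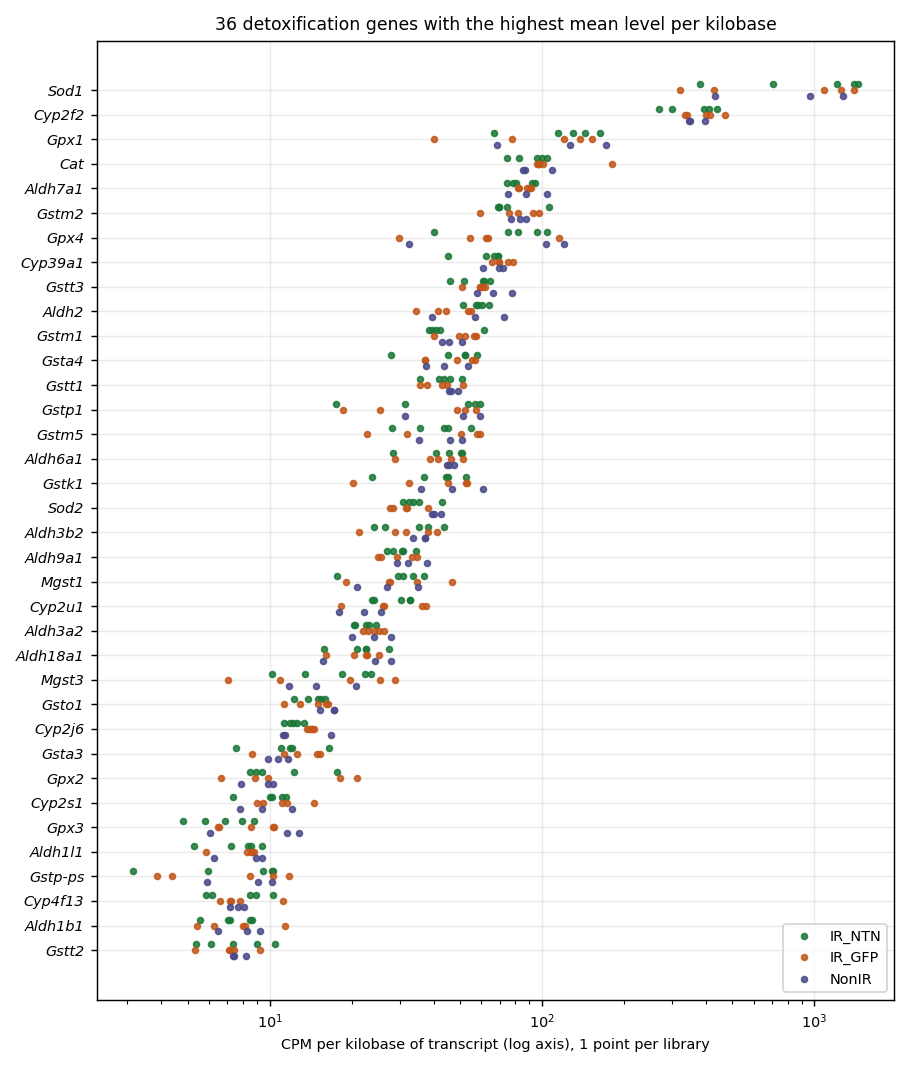
CPM per kilobase of transcript (x axis, log scale) for the 36 detoxification genes with the highest mean, 1 point per library, with IR_NTN above IR_GFP and NonIR in each row. The points of the groups overlap for nearly every gene, and Sod1, Gpx1, Mgst3 and Gpx4 spread most widely, each with its highest library over 4 times its lowest.

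No detoxification gene passed the test in any of the 3 comparisons. In IR_NTN against IR_GFP, 0 of 76 were called, against 3 of all 14727 genes tested (0.0204%). In IR_NTN against NonIR, 0 of 76 were called, against 0.0204% of all genes. In IR_GFP against NonIR, 0 of 76 were called, against 0.0340% of all genes, which is 5 genes. At an unadjusted p under 0.05 in edgeR's test, the counts were 2 of 76 (2.63%) against 6.08% of all genes for IR_NTN against IR_GFP, 8 of 76 (10.5%) against 7.97% for IR_NTN against NonIR, and 5 of 76 (6.58%) against 8.78% for IR_GFP against NonIR. DESeq2 called 37, 31 and 72 genes in these comparisons and limma-voom 3, 1 and 0, with 0 detoxification genes each time. DESeq2 gave an adjusted p to 91, 46 and 72 of the 95 detoxification genes in these comparisons, so that its 0 does not cover the rest. DESeq2's calls were 0.201%, 0.399% and 0.574% of the genes it gave an adjusted p.

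The median log2 fold change of the 76 genes was -0.08 in IR_NTN against IR_GFP, beside -0.01 over all genes tested. It was -0.08 in IR_NTN against NonIR, beside 0.00, and 0.02 in IR_GFP against NonIR, beside 0.02. In IR_NTN against IR_GFP 25 of the 76 genes (32.9%) had a positive fold change, beside 47.3% of all genes, and in IR_NTN against NonIR 28 (36.8%), beside 50.5%. In IR_GFP against NonIR 42 (55.3%) were positive, beside 52.7%. The 95% interval lay within 1 log2 unit either side of 0 for 67 of 76 genes (88.2%, all genes 77.5%), 57 (75%, all genes 69.9%) and 56 (73.7%, all genes 68.9%) in the same order. For those genes a change of more than 2-fold lay outside the interval, and for the rest it did not.

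**Figure D3:**
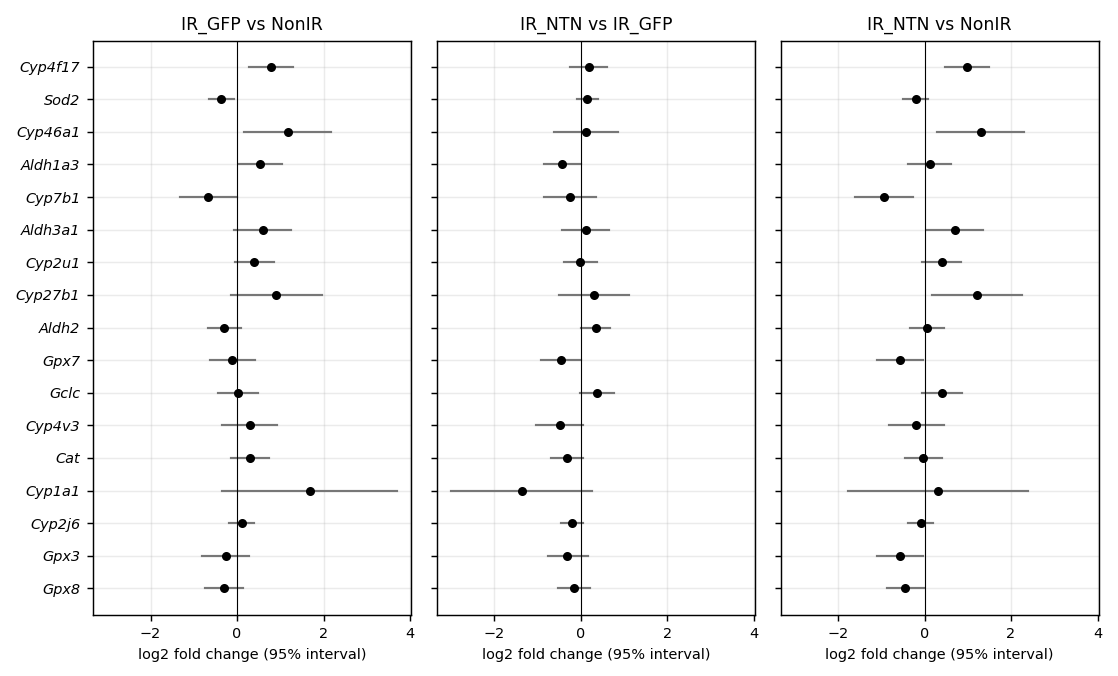
Log2 fold changes (points) with 95% intervals (lines) from edgeR for the 17 genes among the 8 with the lowest p in at least 1 comparison, in IR_GFP against NonIR, IR_NTN against IR_GFP and IR_NTN against NonIR. Most intervals reach 0, and Cyp1a1, Cyp46a1 and Cyp27b1 have the widest.

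Of the 32 P450 genes, 24 were tested and 0 were called in any comparison. The pseudogene Cyp4f41-ps was among those not tested. Cyp2f2 (chr7:27119909-27133660), the enzyme that activates naphthalene in mouse airway club cells, dominated the family. It was 767, 560, 503, 737 and 820 CPM in IR_NTN, 639, 773, 881, 748 and 627 in IR_GFP, and 741, 648 and 653 in NonIR. The ranges of the groups overlapped. Per kilobase, Cyp2f2 made up 69.4% ± 5.43 of the summed P450 level in IR_NTN (SD, n = 5), 69.6% ± 2.60 in IR_GFP (SD, n = 5) and 70.2% ± 0.896 in NonIR (SD, n = 3). Its log2 difference between IR_NTN and IR_GFP was -0.11 (95% interval -0.42 to 0.19). Cyp39a1, which hydroxylates 24-hydroxycholesterol in bile acid synthesis, came next with 12.3% ± 3.12 of the P450 level in IR_NTN, 12.9% ± 1.51 in IR_GFP and 13% ± 0.918 in NonIR (SD, n as above).

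Cyp4f17 (chr17:32506050-32530143), of a P450 family whose members hydroxylate fatty acids, had the lowest p of all detoxification genes in both comparisons with NonIR. It had 7.60, 7.62, 7.74, 6.53 and 8.57 CPM in IR_NTN, 6.67, 4.88, 4.93, 6.54 and 10.3 in IR_GFP, and 3.01, 4.05 and 4.58 in NonIR. Every irradiated library lay above every NonIR library, a split whose share over all genes was not computed. Groups did not overlap for 6.52% of all genes in IR_NTN against NonIR and for 5.14% in IR_GFP against NonIR. The log2 difference from NonIR was 0.97 in IR_NTN (SE 0.24, edgeR adjusted p = 0.362) and 0.79 in IR_GFP (SE 0.24, edgeR adjusted p = 0.350), and neither passed the test over all genes. It was 0.32 in IR_GFP and 0.82 in IR_NTN without the 4 libraries of low index. Between IR_NTN and IR_GFP the log2 difference was 0.19 (95% interval -0.24 to 0.61). Cyp4f17 shares 2.99% of the 50-base runs in its annotated transcripts with other genes, among them Cyp4f16.

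Enzymes of oxysterol and vitamin D metabolism came next in order of p in IR_NTN against NonIR. In IR_GFP against NonIR, Sod2 ranked 2, with Cyp46a1 at 3, Cyp7b1 at 5 and Cyp27b1 at 8. Cyp7b1, the oxysterol 7α-hydroxylase (chr3:18071950-18243338), had 1.00, 1.82, 1.63, 1.60 and 1.98 CPM in IR_NTN, 2.83, 0.990, 1.95, 1.35 and 2.5 in IR_GFP, and 2.94, 3.54 and 2.70 in NonIR. All 5 IR_NTN libraries lay below the 3 NonIR libraries, and IR_GFP overlapped both groups. The log2 difference was -0.93 for IR_NTN against NonIR (SE 0.32, edgeR adjusted p = 0.5) and -0.67 for IR_GFP against NonIR (SE 0.31, edgeR adjusted p = 0.562). Cyp46a1, which makes 24-hydroxycholesterol from cholesterol and is best known in brain, was low throughout, at 7 to 18 reads per library in IR_NTN, 8 to 16 in IR_GFP and 2 to 7 in NonIR. Its log2 difference from NonIR was 1.3 in IR_NTN (95% interval 0.29 to 2.3) and 1.17 in IR_GFP (95% interval 0.15 to 2.18), with edgeR adjusted p of 0.534 and 0.504. Cyp27b1, which makes active vitamin D, averaged 1.59 ± 0.454 CPM in IR_NTN (SD, n = 5), 1.27 ± 0.643 in IR_GFP (SD, n = 5) and 0.685 ± 0.540 in NonIR (SD, n = 3), and its edgeR adjusted p was 0.563 for IR_NTN against NonIR. Cyp27b1 had 6, 4 and 16 reads in the NonIR libraries. Its log2 difference in that comparison was 1.21. It was 2.05 without NonIR replicate 3, the highest of the 3, whose removal raises the difference by itself. It was 0.91 without the 4 libraries of low index. With 1 added to the deposited normalised values before taking logs, it was 0.64, the lowest of the settings.

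Of all 76 genes, only Cyp2j6 separated IR_NTN from IR_GFP without overlap. This is 1.32% of them, against 1.11% of all genes tested. Cyp2j6, an arachidonic acid epoxygenase, had 44.0, 42.9, 45.5, 48.4 and 40.8 CPM in IR_NTN and 51.8, 49.4, 50.4, 51.1 and 52.5 in IR_GFP, with 60.4, 41.0 and 40.4 in NonIR. The NonIR libraries lay on both sides of the irradiated ones. The log2 difference between IR_NTN and IR_GFP was -0.20 (SE 0.12, edgeR adjusted p = 0.866). Groups did not overlap for Cyp4f17 and Cyp7b1 in IR_NTN against NonIR (2.63% of the 76 genes, against 6.52% of all genes), nor for Cyp4f17 and Sod2 in IR_GFP against NonIR (2.63%, against 5.14% of all genes).

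Cyp1a1, the aryl hydrocarbon receptor's best known target, was high in a single library. It had 0.645, 1.23, 0.978, 0.870 and 1.59 CPM in IR_NTN, 0.725, 10.2, 1.33, 0.809 and 0.713 in IR_GFP, and 0.753, 1.1 and 0.735 in NonIR. The high value, IR_GFP 2, rested on 154 reads, while the other libraries had 9 to 21. The log2 difference of IR_GFP from NonIR was 1.68 (95% interval -0.34 to 3.69, edgeR adjusted p = 0.644) and became 0.05 without IR_GFP 2. Tiparp, another target of the receptor, was 20.4 CPM in IR_GFP 2 and 12.8 to 32.5 in the other IR_GFP libraries. Ahrr, the receptor's repressor, had 8 reads over all libraries, too few to compare. The part of the receptor in the Cyp1a1 value of IR_GFP 2 was not tested.

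Cyp2u1, a long-chain fatty acid hydroxylase, averaged 126 ± 19.4 CPM in IR_NTN (SD, n = 5), 127 ± 35.1 in IR_GFP (SD, n = 5) and 95.8 ± 16.5 in NonIR (SD, n = 3). Its log2 difference from NonIR was 0.39 in IR_NTN and 0.40 in IR_GFP, with edgeR adjusted p of 0.682 and 0.612. Cyp51 (lanosterol demethylase of cholesterol synthesis), Cyp27a1 (sterol 27-hydroxylase), Cyp20a1, Cyp4f13 and Cyp26b1 (which breaks down retinoic acid) had adjusted p of at least 0.653. Over the 24 tested P450 genes, 5 were higher and 19 lower in IR_NTN than in IR_GFP by fold change alone, with a median of -0.18, where 47.3% of all genes were higher. Of these, 0 had an unadjusted p under 0.05. In the same comparison the summed level of 8 macrophage markers was 66.0 to 101 CPM in IR_NTN, against 103 to 189 CPM in IR_GFP. All 8 were lower in IR_NTN by fold change, and 0 passed the test. Of the 6 B and plasma cell markers, 0 passed the test, and 5 of 6 were lower with a median log2 difference of -0.79. All 6 fibroblast markers were lower too, with a median of -0.87, and 1 of them (Dpt) passed the test, as given with the peroxidases below. Of 9 duct and ionocyte markers 8 were lower, and of 4 endothelial markers 3. In contrast, 7 of 9 markers of the granular convoluted tubule and 5 of 9 acinar markers were higher. Basal and myoepithelial markers were split 3 and 3, and all 3 adipocyte markers tested were higher. In these lists 0 passed the test. The part of all these cells in the P450 values was not tested.

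**Figure D4:**
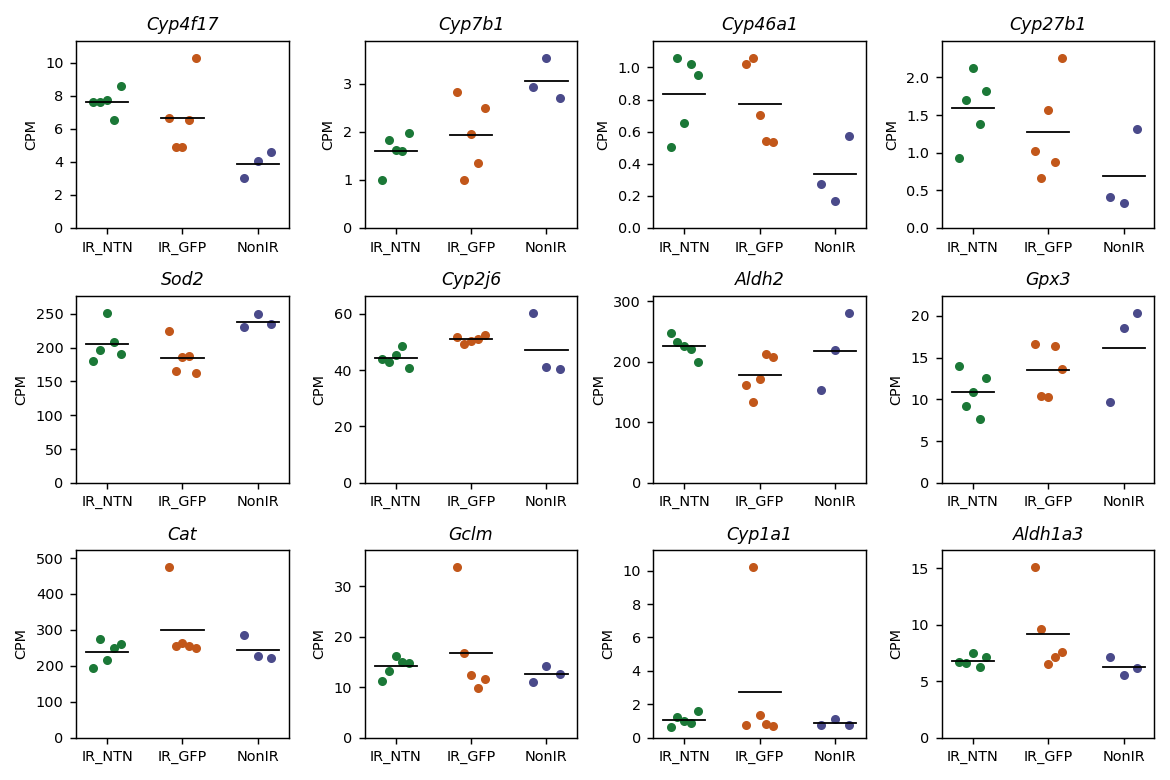
CPM (y axis, from 0) of 12 detoxification genes in IR_NTN (green), IR_GFP (orange) and NonIR (blue), 1 point per library, with a line at the mean of the group. Cyp4f17 lies higher in all 10 irradiated libraries than in the 3 NonIR libraries, and Cat, Gclm and Cyp1a1 each have 1 IR_GFP library apart from the other 4.

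The glutathione S-transferases chosen here comprised 23 genes, of which 18 were tested and 0 were called. The 18 include the pseudogenes Gstm2-ps1 and Gstp-ps. Gstm2 and Gstm1, of the mu class, and Gstt3, of the theta class, were the highest in CPM. Per kilobase Gstm2 made up 15.6% ± 2.10 of the summed transferase level in IR_NTN, 15.9% ± 1.54 in IR_GFP and 15.6% ± 1.78 in NonIR (SD, n = 5, 5 and 3). Gstm2 was 79.3, 73.6, 73.8, 113 and 74.1 CPM in IR_NTN, 63.0, 87.2, 98.7, 104 and 80.5 in IR_GFP, and 93.1, 81.8 and 88.8 in NonIR. IR_NTN 4 stood above the rest of its group for Gstm2 and also for Gstm1, at 79.1 CPM against 49.7 to 54.4. The fold changes of the 18 genes ran from -0.41 to 0.11 (log2) in IR_NTN against IR_GFP, from -0.24 to 0.16 in IR_NTN against NonIR and from -0.23 to 0.46 in IR_GFP against NonIR, with adjusted p of at least 0.679. The ends at -0.41 and 0.46 and the adjusted p of 0.679 belong to the pseudogene Gstm2-ps1. It had 19 to 48 reads per library and shares 46.9% of its 50-base runs with other annotated genes, among them Gstm1. Without it these ends were those of Gsto2, at -0.38 and 0.26.

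Gstp1, the pi class transferase, followed the length trend. It was 44.0, 14.4, 25.8, 48.6 and 46.6 CPM in IR_NTN, 15.3, 47.2, 42.7, 40.0 and 20.8 in IR_GFP, and 25.8, 42.0 and 48.5 in NonIR. The 4 lowest values lay in the 4 libraries of low index, with IR_NTN 3 level with NonIR 1. Between IR_NTN and IR_GFP it differed by 0.11 on the log2 scale (95% interval -0.73 to 0.95). Gstp1 shares 33.7% of its 50-base runs with other annotated genes, among them Gstp2 and Gstp-ps, and Gstm1 18.9%, among them Gstm2-ps1 and Gstm3. Counts of these genes are uncertain to that extent, since the sources used here do not name the counting tool. Gsta4, which conjugates the lipid aldehyde 4-hydroxynonenal, averaged 46.0 ± 11.4 CPM in IR_NTN, 46.1 ± 9.22 in IR_GFP and 44.0 ± 7.95 in NonIR (SD, n = 5, 5 and 3). The microsomal Mgst1 averaged 34.7 ± 8.59, 36.3 ± 12.1 and 32.2 ± 8.24 CPM in the same order of groups. Gstk1 of the kappa class and Gsto1 of the omega class had adjusted p of at least 0.738.

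Glutathione synthesis begins with glutamate-cysteine ligase, whose catalytic subunit is Gclc and whose modifier is Gclm. Gclm (chr3:122245557-122270732) was 11.3, 13.3, 16.2, 15.0 and 14.9 CPM in IR_NTN, 33.8, 16.7, 12.5, 9.85 and 11.6 in IR_GFP, and 11.1, 14.3 and 12.7 in NonIR. Only IR_GFP 1 stood apart. The log2 difference of IR_GFP from NonIR was 0.41 (95% interval -0.28 to 1.11, edgeR adjusted p = 0.770). It was -0.19 without IR_GFP 1 and 2, the 2 highest libraries of that group, whose removal lowers the difference by itself. Gclc was 4.52, 4.63, 5.70, 4.42 and 6.03 CPM in IR_NTN, against 4.86, 4.69, 3.05, 3.17 and 3.69 in IR_GFP, and was 4.72, 3.12 and 3.68 in NonIR. Its log2 difference of IR_NTN from IR_GFP was 0.38 (SE 0.19, edgeR adjusted p = 0.835).

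Other NRF2 targets were read in IR_GFP 1 as well. In that library the quinone reductase Nqo1 was 8.48 CPM, against 4.28 to 6.4 in the rest of IR_GFP. Srxn1, which repairs oxidised peroxiredoxins, was 16.2 CPM in it, against 9.98 to 13.1. For both genes IR_GFP 1 was the highest of all 13 libraries. The thioredoxin reductase Txnrd1 was 17.8 CPM, against 12.1 to 18.6, and the haem-degrading Hmox1 5.29 CPM, against 4.46 to 6.20. Nfe2l2 itself was 52.0 CPM in it, against 45.2 to 52.5. For Nqo1, Srxn1, Txnrd1 and Hmox1 the adjusted p was at least 0.786 in all 3 comparisons. The part of NRF2 in the values of IR_GFP 1 was not tested.

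Of the 7 glutathione peroxidase entries, 6 were tested and 0 called, and the other is the pseudogene Gpx2-ps1. Gpx1, the cytosolic enzyme, made up 53.7% ± 2.45 of the summed peroxidase level per kilobase in IR_NTN, 50.8% ± 9.49 in IR_GFP and 51.8% ± 2.93 in NonIR (SD, n = 5, 5 and 3). It was 175, 71.5, 123, 139 and 154 CPM in IR_NTN, 43.0, 129, 148, 164 and 83.1 in IR_GFP, and 73.5, 136 and 184 in NonIR, lowest in the 4 libraries of low index. Gpx4, which reduces lipid hydroperoxides in membranes, was 38.4 to 100 CPM over IR_NTN, 28.7 to 111 over IR_GFP and 31.1 to 116 over NonIR. Its log2 difference was 0.29 for IR_NTN against IR_GFP (95% interval -0.61 to 1.19). For IR_GFP against NonIR it was -0.40 (95% interval -1.42 to 0.63), so that a 2-fold fall lay within the interval. Gpx4 shares 34.7% of its 50-base runs with other annotated genes, among them the pseudogene Gpx4-ps2.

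The secreted Gpx3 and the endoplasmic reticulum enzymes Gpx7 and Gpx8 had an unadjusted p under 0.05 in IR_NTN against NonIR and did not pass the adjusted test. Gpx3 was 14.0, 9.21, 10.9, 7.69 and 12.6 CPM in IR_NTN, 16.6, 10.4, 10.3, 16.4 and 13.6 in IR_GFP, and 9.65, 18.5 and 20.4 in NonIR. The lowest NonIR value lay within the range of IR_NTN. The log2 difference of IR_NTN from NonIR was -0.57 for Gpx3 (SE 0.25), -0.57 for Gpx7 (SE 0.25) and -0.45 for Gpx8 (SE 0.20), with edgeR adjusted p of 0.612, 0.612 and 0.622. The summed level of 6 fibroblast markers was 131 to 180 CPM in IR_NTN, 223 to 357 CPM in IR_GFP and 221 to 263 CPM in NonIR. Dpt, a fibroblast marker, averaged 6.85 ± 1.33 CPM in IR_NTN (SD, n = 5) and 14.5 ± 1.15 CPM in NonIR (SD, n = 3), a log2 difference of -1.09 that did not pass the test (edgeR adjusted p = 0.128). Against IR_GFP, at 17.2 ± 4.47 CPM (SD, n = 5), Dpt fell in IR_NTN (log2 difference -1.33, edgeR adjusted p = 0.0174). Other lists also held mostly lower markers in IR_NTN against NonIR. These were 7 of 8 macrophage, 4 of 4 endothelial, 7 of 9 duct and ionocyte, and 8 of 9 tubule markers. Of 9 acinar markers 6 were higher, as were 4 of 6 B and plasma cell markers and 3 of 3 adipocyte markers tested. Basal and myoepithelial markers were split 3 and 3. The part of all these cells in the peroxidase values was not tested.

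Sod2, the mitochondrial manganese superoxide dismutase (chr17:13006846-13040063), is a long transcript and did not follow the length trend. It was 181, 197, 252, 208 and 190 CPM in IR_NTN, 224, 166, 186, 187 and 162 in IR_GFP, and 231, 250 and 235 in NonIR. All 5 IR_GFP libraries lay below the 3 NonIR libraries, while IR_NTN overlapped both. The log2 difference of IR_GFP from NonIR was -0.36 (SE 0.13, edgeR adjusted p = 0.462), and that of IR_NTN from NonIR was -0.21 (SE 0.13, edgeR adjusted p = 0.740). It did not pass the test. Sod2 shares 21% of its 50-base runs with other annotated genes.

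Catalase, the peroxisomal enzyme that splits hydrogen peroxide, was 195, 274, 215, 250 and 261 CPM in IR_NTN, 474, 256, 264, 256 and 250 in IR_GFP, and 285, 226 and 222 in NonIR. IR_GFP 1 was far above the other libraries, which overlapped between groups. IR_NTN differed from IR_GFP by -0.33 on the log2 scale (95% interval -0.70 to 0.04, edgeR adjusted p = 0.852). The difference was -0.07 without IR_GFP 1 and 2, of which IR_GFP 2, at 256 CPM, did not stand apart.

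Of the 20 aldehyde dehydrogenases, 18 were tested and 0 called. Aldh7a1, of lysine breakdown, was the highest of them per kilobase, at 161 ± 17.0 CPM in IR_NTN (SD, n = 5), 166 ± 8.21 in IR_GFP (SD, n = 5) and 171 ± 28.1 in NonIR (SD, n = 3). Its largest value exceeded its smallest 1.41-fold, the narrowest range of the 12 genes with the highest level. Its log2 difference was -0.05 for IR_NTN against IR_GFP (95% interval -0.28 to 0.18) and -0.04 for IR_GFP against NonIR (95% interval -0.31 to 0.23).

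Aldh2, the mitochondrial enzyme that clears acetaldehyde, was 247, 233, 225, 221 and 199 CPM in IR_NTN, against 161, 133, 172, 213 and 207 in IR_GFP, and was 153, 220 and 281 in NonIR. The 2 irradiated groups overlapped between 199 and 213 CPM. The log2 difference of IR_NTN from IR_GFP was 0.34 (95% interval 0.01 to 0.68, edgeR adjusted p = 0.812). Aldh1a3, which makes retinoic acid from retinaldehyde, was 6.67, 6.63, 7.49, 6.24 and 7.14 CPM in IR_NTN, 15.1, 9.63, 6.57, 7.15 and 7.55 in IR_GFP, and 7.12, 5.57 and 6.21 in NonIR. IR_GFP 1 and 2 were the 2 highest libraries. The log2 difference of IR_NTN from IR_GFP was -0.43 (SE 0.20, edgeR adjusted p = 0.816) and became -0.02 without them. Leaving out the 2 highest libraries of a group moves such a difference by itself. Aldh3a1, best known from the cornea, averaged 5.05 ± 2.13 CPM in IR_NTN, 4.66 ± 1.22 in IR_GFP and 3.09 ± 0.466 in NonIR (SD, n = 5, 5 and 3), with edgeR adjusted p of 0.611 for IR_NTN and 0.612 for IR_GFP against NonIR.

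The UDP-glycosyltransferases were low. Of 4 genes, only Ugt8a, which makes the myelin lipid galactosylceramide, passed the filter, at 2.91 ± 0.850 CPM in IR_NTN, 3.16 ± 0.547 in IR_GFP and 3.99 ± 1.25 in NonIR (SD, n = 5, 5 and 3). Its adjusted p was at least 0.727. Ugt1a1, Ugt1a6a and Ugt1a7c averaged under 0.5 CPM and share 80.2%, 52.1% and 53.7% of their 50-base runs with other annotated genes, mostly of the Ugt1a cluster, whose members use common exons.

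Genes around these enzymes gave a similar picture. Of 18 tested genes of glutathione synthesis, recycling and transport, 0 passed the test in any comparison, nor did any of 16 thioredoxin and peroxiredoxin genes, 22 NRF2 pathway genes, 7 xenobiotic receptors and partners, 8 P450 electron donors, 24 other oxidising and conjugating enzymes, 14 retinoid pathway genes or 8 efflux transporters. Some of these lists share genes with the enzymes above. The lowest adjusted p was that of Abcc5, an export pump for organic anions, at 61.0 ± 7.93 CPM in IR_GFP (n = 5) and 43.5 ± 3.41 CPM in NonIR (n = 3, SD, edgeR adjusted p = 0.250). Ephx1, the microsomal epoxide hydrolase, was 222 ± 24.1 CPM in IR_NTN (SD, n = 5), against 169 ± 27.1 CPM in NonIR (SD, n = 3, edgeR adjusted p = 0.544). Por, which passes electrons to microsomal P450 enzymes, was 35.6 ± 7.26 CPM in IR_GFP (n = 5), against 45.6 ± 16.4 CPM in NonIR (n = 3, SD, edgeR adjusted p = 0.682). Txnip, an inhibitor of thioredoxin, was 107 ± 18.3 CPM in IR_GFP (n = 5), against 71.9 ± 6.82 CPM in NonIR (n = 3, SD, edgeR adjusted p = 0.356).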

How the data were processed

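RNA of mouse submandibular glands was read in 13 SMART-Seq v4 and Nextera XT libraries on a NextSeq 500, per the labels' protocols. The submitters' processing notes name STAR 2.5.2a, the builds GRCm38.p3 and mm10, and the packages DESeq2, edgeR and limma. The sources used here do not name the counting tool, and the series' own design text names another instrument and other aligners, so the sample labels were followed. SMART-Seq reads full-length cDNA and the kit does not mark strand, so reads of overlapping genes cannot be told apart.

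The deposited count table holds the authors' raw reads per gene (48709 genes and 24 spike-in and transgene entries, which were left out and took 0 to 9 reads per library). The authors also deposited normalised signal values for 17957 entries, which equal the counts times 1 constant per library. CPM printed here were computed from the counts with TMM library sizes, and levels per kilobase use the length of 1 principal transcript per gene in GENCODE mouse release M21.

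Genes were kept by filterByExpr on the group, which left 14727. Groups were compared by edgeR 4.0.16 (R 4.3.3), whose two-sided quasi-likelihood F test used every library and a mean for each group. P-values were adjusted by Benjamini-Hochberg over those 14727 genes, and calls were made under 0.05. Adjusted p-values are from this test unless DESeq2 1.42.0 or limma 3.58.1 is named. Standard errors came from the F statistic of each fold change, and the biological coefficient of variation was 0.265. The script was tested on simulated data, and 24 alternative settings (other tools, scalings, filters, a replicate block, libraries left out) were run. The enzymes and the other lists were chosen with earlier results of these data known. Genes named with values were those past the threshold, the 8 with the lowest p in each comparison, the 12 highest per kilobase, the highest of each family and the 9 genes added by name; non-members were named where past the threshold or among the 2 lowest p of their list, and Nfe2l2, Ahrr, and the IR_GFP 2 value of Tiparp were chosen after values were seen. Replicate libraries differed by more than sampling noise. The libraries carry no molecular identifiers, so PCR copies are counted as reads, and counting error is only part of the error.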

Additional observations from a re-analysis of the deposited data

Results flagged for a closer look

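Among 43 named genes, 86 groups of 5 libraries were examined for a library far from the rest of its group. A rate of 1 in 20 would give about 4.3, but the genes share libraries, so that no chance rate follows. In all, 12 were found. IR_GFP 1 supplied 5 of them: Cat at 474 CPM (the other 4 libraries 250 to 264), Gclm at 33.8 CPM (9.85 to 16.7), Gpx8 at 9.14 CPM (5.60 to 6.53), Cyp4v3, a fatty acid hydroxylase, at 7.83 CPM (3.43 to 3.78), and Gstt3, which was low, at 95.6 CPM (111 to 116). IR_GFP 1 also had the lowest read total, the lowest short-transcript index (-1.07) and the highest TMM factor (1.421), and Egf, of the granular convoluted tubule, was 214 CPM in it (385 to 1340 in the rest of IR_GFP); the part of these in the values was not tested.

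IR_NTN 4 was high for Gstm2 at 113 CPM (73.6 to 79.3) and for Gstm1 at 79.1 CPM (49.7 to 54.4), 2 genes of the mu class. IR_NTN 1 was low for Cyp39a1 at 138 CPM (191 to 211). IR_NTN 5 was low for Ugt8a at 1.43 CPM (3.01 to 3.51). IR_GFP 2 was high for Cyp1a1 at 10.2 CPM (0.713 to 1.33), IR_GFP 3 for Cyp4f13 at 19.6 CPM (11.5 to 13.6) and IR_GFP 5 for Cyp26b1 at 3.57 CPM (0.405 to 1.31).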

How the results depend on the processing

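In 24 alternative settings of the 3 comparisons, 0 of the detoxification genes given an adjusted p were called (46 to 91 with DESeq2), with 0 to 10 at an unadjusted p under 0.05. Of 575 fold changes recomputed for the 8 genes of lowest p in each comparison, 573 kept their direction and passed no threshold (lowest adjusted p = 0.160). The other 2 reversed: Cyp1a1 in IR_NTN against IR_GFP was -1.62 to 0.26 with 1 library left out, 0.26 being the value without IR_GFP replicate 2, and 0.21 without IR_GFP 1 and 2. Over all named genes tested, 126 fold changes in all, 53 took both signs over the settings; of these 2 were over 0.5 in size in the fit reported, Cyp1a1 and Cyp26b1 (IR_NTN against IR_GFP, -0.68, with 0.18 without the 4 libraries of low index).

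Counts over all genes moved more, in the order IR_GFP against NonIR, IR_NTN against IR_GFP, IR_NTN against NonIR, from 5, 3 and 3. They were 72, 37 and 31 with DESeq2, 0, 3 and 1 with limma-voom, 20, 10 and 4 with no filter on low counts, and 0, 0 and 2 with the libraries of the comparison alone. They were 1, 1 and 5 without IR_GFP 1 and 2. With settings chosen after seeing the data, they were 35, 7 and 6 with the short-transcript index as a covariate and 4, 0 and 1 without the 4 libraries of low index. The cause of these shifts was not tested. Leaving out 1 library at a time gave 0 to 17, 0 to 11 and 0 to 4. The replicate block gave 0, 0 and 0. Deviations of same-numbered libraries correlated between -0.43 and 0.28, and differently numbered libraries were not set beside them. Whether a replicate number marks a shared animal, litter or day therefore stays unknown. Depth limits the low genes most, such as Cyp46a1, which had 2 to 18 reads per library.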
